A study of Rattus norvegicus with 20 samples.

Results

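The mitochondrial ribosome is the machine inside mitochondria that makes the few proteins encoded by mitochondrial DNA, all of them core parts of the respiratory chain and of ATP synthase. Its RNAs come from mitochondrial DNA, whereas its proteins come from nuclear genes, are made in the cytosol and are imported. The genes are named Mrpl for the large subunit, which forms peptide bonds, and Mrps for the small subunit, which reads the mRNA, and in skeletal muscle they stand between the nuclear genome and the supply of oxidative capacity.

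The genes described here are the protein-coding rows of a rat muscle count table whose symbol starts with Mrpl or Mrps followed by a number. There were 76 such rows, 45 Mrpl and 31 Mrps, with 75 distinct symbols, among 32495 named rows. Of these, 71 (42 Mrpl and 29 Mrps) had enough counts to be tested.

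Total RNA, depleted of ribosomal RNA, was sequenced from the gastrocnemius, a fast mixed muscle of the calf, of female Fischer 344 rats. All rats in all groups carried the Ward colorectal carcinoma, a transplanted tumour, and their age is given in the methods without a unit. TUMOUR STD rats (5 libraries) had the tumour and a standard diet and no chemotherapy. CHEMO STD rats (7 libraries) had the tumour, the standard diet and 2 cycles of CPT-11 (irinotecan, a topoisomerase inhibitor) followed by 5-fluorouracil, an antimetabolite, and muscle was taken 7 days after the last dose. CHEMO FO rats (8 libraries) had the tumour and the same chemotherapy, with a diet containing fish oil (EPA and DHA) from the first day of chemotherapy. There was no tumour-free group and no fish oil group without chemotherapy. CHEMO STD replicates 1 and 2 share a library name stem, were summed and count as 1 sample, which leaves 6 CHEMO STD samples and 19 samples in all.

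Libraries held 3020821 to 10857477 counts in named rows, of which 6868 to 27701 fell on the 76 genes. Their share of a library was 0.200% to 0.280% in TUMOUR STD, 0.263% to 0.288% in CHEMO STD and 0.226% to 0.304% in CHEMO FO. Muscle fibre markers were abundant in every sample, with a summed level of 114245.5 to 223479.7 CPM (counts scaled to library depth, here by the TMM method, and not corrected for gene length). Levels of different genes are therefore not ranked against each other.

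Some samples stood apart. TUMOUR STD replicate 10 had summed keratinocyte markers of 324.3 CPM and CHEMO FO replicate 16 had 74.7 CPM, against 0.24 to 2.84 CPM elsewhere. CHEMO FO replicate 18 had the highest summed leukocyte markers (312.0 CPM) and the lowest summed muscle fibre markers. The leukocyte markers spread unequally in CHEMO FO. Cd163 was at 65.7 ± 84.6 CPM there (SD, n = 8), while Ptprc was at 9.52 ± 2.18 and Coro1a at 4.0 ± 1.6. The summed value therefore does not stand for every leukocyte marker. Leukocyte markers summed to 46.3 to 65.6 CPM in TUMOUR STD, 58.8 to 178.4 in CHEMO STD and 37.5 to 312.0 in CHEMO FO. Fibroblast and tendon markers, summed, ranged from 1771.3 to 11178.0 CPM in TUMOUR STD, from 1161.6 to 9069.3 in CHEMO STD and from 547.6 to 5548.1 in CHEMO FO. Slow fibre markers summed to 10626.4 ± 2684.0 CPM in TUMOUR STD (SD, n = 5), 6383.2 ± 1281.4 in CHEMO STD (n = 6) and 7686.2 ± 2982.1 in CHEMO FO (n = 8). No marker of these lists was at 0 in all libraries, and the part of these cells and fibres in the results was not tested. In bulk muscle, fewer cells of a type and less RNA per cell cannot be told apart.

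A few genes of the family could not be described. Mrpl53, a protein of the stalk that recruits translation factors, and both rows of Mrps21l, whose symbol marks it as a relative of the small-subunit gene Mrps21, had 0 counts in every library, which allows a level of up to 0.276 CPM in the deepest library and 0.993 CPM in the shallowest (3 counts, counting error only). Mrpl1 had 0 to 3 counts and Mrpl36 had 0 to 1 count per library. Reads shared by Mrps21 and Mrps21l may have been split or dropped in counting, so the level of Mrps21 is uncertain. Mrpl9, Mrpl11, Mrpl24 and Mrpl30 were not analysed here. The 13 protein genes of mitochondrial DNA, the templates this ribosome translates, were listed at 0 in all libraries, so its products could not be set beside it.

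The 71 tested genes varied little between samples of one group. The within-group SD of log2 CPM had a median of 0.263 over these genes, beside 0.357 over all 11716 genes tested, 0.214 over 70 cytosolic ribosomal protein genes and 0.286 over 80 nuclear genes of oxidative phosphorylation. Mrpl17 was the steadiest (SD 0.106), at 72.7 ± 4.13 CPM in TUMOUR STD (SD, n = 5), 76.9 ± 5.39 in CHEMO STD (n = 6) and 81.0 ± 6.85 in CHEMO FO (n = 8). Mrps22, a small-subunit protein specific to mitochondria, was the most variable (SD 0.483), at 23.6 ± 7.81, 31.9 ± 5.59 and 28.4 ± 9.53 CPM in the same order.

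**Figure D1:**
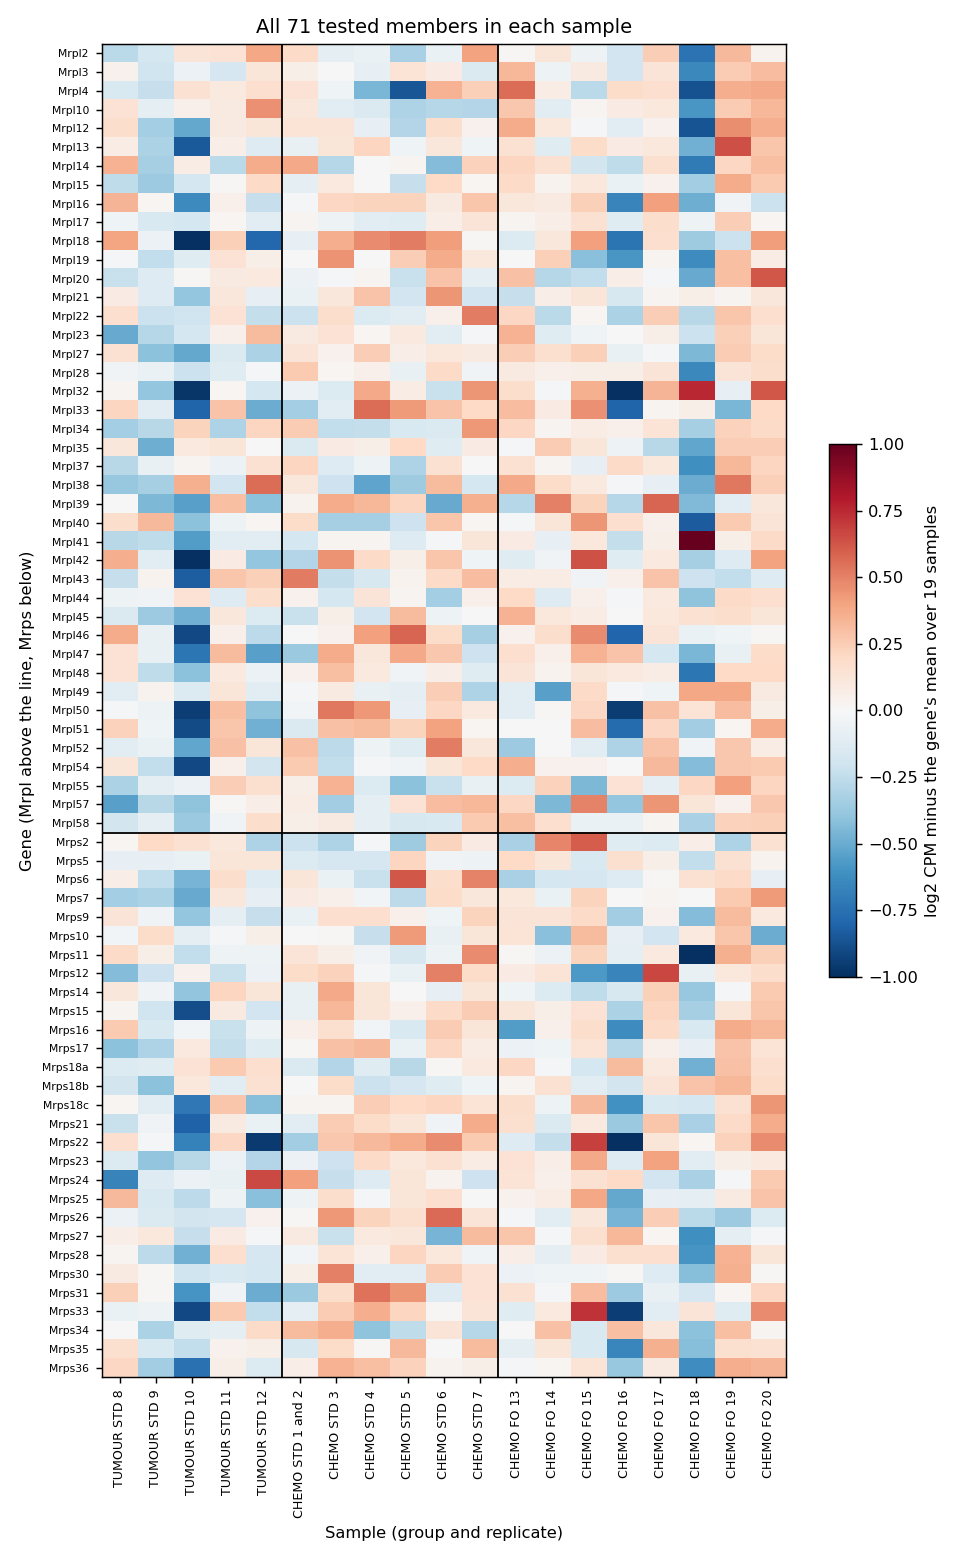
Log2 CPM of each of the 71 tested genes (rows) minus that gene's mean over 19 samples, for each sample (columns), with vertical lines between groups and a horizontal line between Mrpl and Mrps genes. Colours stop at a difference of 1. The columns of TUMOUR STD 10 and CHEMO FO 18 are mostly blue, and these samples held the lowest TMM-scaled value of 25 and 22 genes.

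The family's level was lowest in a few samples of 2 groups. Summed CPM of the 71 genes was 2638.8, 2317.3, 2109.6, 2729.0 and 2591.0 in TUMOUR STD replicates 8 to 12. In CHEMO STD the lowest, median and highest sums were 2657.1, 2764.6 and 2842.7, and in CHEMO FO they were 2160.7, 2860.9 and 3082.5. The CHEMO STD samples lay close together, while both other groups reached lower values, the lowest in TUMOUR STD 10 and CHEMO FO 18, and all groups overlapped. The low sum of CHEMO FO 18 depended on the TMM scaling, since its unscaled share of counts was 0.261%, inside its group's range, whose lowest value was 0.226% in CHEMO FO 16. The ratio of summed Mrpl to summed Mrps CPM stayed between 1.59 and 1.83 over the 19 samples.

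**Figure D2:**
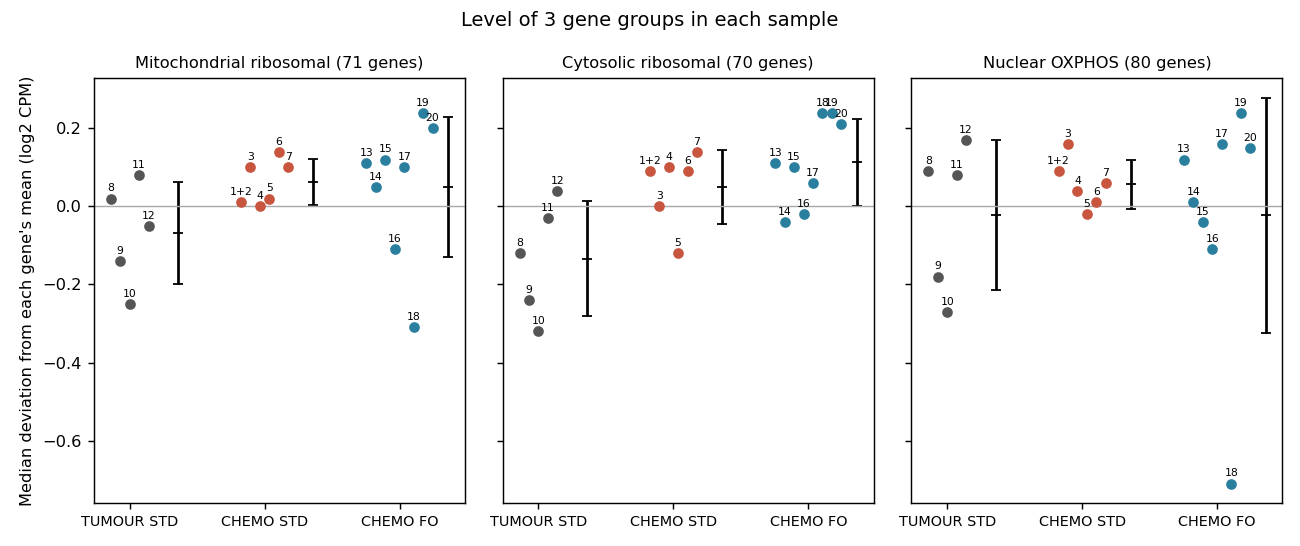
Median deviation (log2 CPM, vertical axis) of a gene group in each sample, by group. Deviations are from the mean of each gene's group means. Replicate numbers stand above the points, and the mean ± SD is at the right of each group. Mitochondrial ribosomal protein genes reached -0.31 in CHEMO FO 18, where cytosolic ribosomal protein genes stood at 0.24 and oxidative phosphorylation genes at -0.71.

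The first comparison, CHEMO STD with TUMOUR STD, addresses chemotherapy in tumour-bearing rats. Most genes of the family were slightly higher after chemotherapy, and no gene reached 1.5-fold. Of 71 genes, 60 had a fitted log2 fold change above 0 (84.5%, against 49.7% of all genes tested), with a median of 0.16, beside -0.00 for all genes tested, and a range from -0.30 to 0.46. At an unadjusted p below 0.05, 5 were higher (2.67% of all genes were) and 0 lower (3.83%) by edgeR's quasi-likelihood test, or 7.04% of the family in either direction against 6.5% of all genes. With the added limit of 1.5-fold, 0 of 71 passed, against 2.38% of all genes. DESeq2 also gave 5 at p below 0.05, beside 6.85% of all genes. The smallest Benjamini-Hochberg adjusted p of the family in edgeR was 0.719. Slow fibre markers lay the other way in the same comparison, with 6 of 6 lower, a median log2 fold change of -0.44 and 2 at an unadjusted p below 0.05 in edgeR, and their part in the family's difference was not tested. In 0 genes of the family were the groups free of overlap (0.495% of all genes), and for 43 of 71 the 95% interval of the fold change lay within 1.5-fold either way.

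The median and the number at p below 0.05 rested partly on single TUMOUR STD samples. With 1 TUMOUR STD sample left out, 56 to 63 of 71 genes were on the higher side. Without TUMOUR STD 10, the median was 0.11, with 56 of 71 genes higher (51.6% of all genes) and 2 at p below 0.05 (2.71% of all genes). Without TUMOUR STD 11 there were 14 at p below 0.05, and the share of all genes was 10.0%. Leaving out TUMOUR STD 10 and CHEMO FO 16 and 18 together gave a median of 0.11. At p below 0.05, 5 genes were then higher and 1 lower, beside 4.65% of all genes in either direction.

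Both subunits had genes on the higher side. Among 42 Mrpl genes 34 were above 0 (median 0.15), and among 29 Mrps genes 26 were (median 0.20). Members listed as bacterial-type (33 of 40 higher, median 0.13) and members not so listed (26 of 30 higher, median 0.19) gave like counts. The latter include Mrps18a and Mrps18b, paralogs of the bacterial-type Mrps18c, and Mrps36 was in neither class. The difference between these classes was not tested.

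In the small subunit, 4 genes had an unadjusted p below 0.05. Mrps17, an early-binding protein of the small subunit's RNA, was at 16.3, 17.5, 23.2, 18.4 and 19.9 CPM in TUMOUR STD replicates 8 to 12. CHEMO STD values of Mrps17 had a lowest, median and highest of 20.7, 23.9 and 27.2. All but 1 of the TUMOUR STD values lay below the lowest CHEMO STD value. Mrps17 had a log2 fold change of 0.33 ± 0.129 (SE, unadjusted p = 0.0175, Benjamini-Hochberg adjusted p = 0.719, edgeR). It kept an unadjusted p below 0.05 under each of 31 alternative settings, which overlap and are not independent checks.

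Mrps26, a small-subunit protein with no bacterial counterpart, was at 13.9, 13.1, 12.8, 12.9 and 14.9 CPM in TUMOUR STD replicates 8 to 12. Its CHEMO STD values ran from 14.6 over a median of 16.6 to 21.5, and only TUMOUR STD 12 reached the CHEMO STD range. The difference on the log2 scale was 0.36 ± 0.145 (SE, unadjusted p = 0.020, edgeR), and the unadjusted p reached 0.0597 in the least favourable of 31 settings, without CHEMO STD 6.

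Mrps23, likewise specific to mitochondria, was at 36.0, 30.1, 32.7, 38.0 and 32.3 CPM in TUMOUR STD replicates 8 to 12 and at 34.3, 42.2 and 45.4 (lowest, median, highest) in CHEMO STD. TUMOUR STD 8 and 11 lay above the lowest CHEMO STD value, and the log2 fold change was 0.28 ± 0.122 (SE, unadjusted p = 0.0308, edgeR). Its p missed 0.05, at up to 0.0793, without CHEMO STD 4, CHEMO STD 6, TUMOUR STD 9, TUMOUR STD 10 or TUMOUR STD 12. Mrps15, a bacterial-type protein of the small subunit, was at 90.2, 77.4, 47.9, 94.2 and 77.7 CPM in TUMOUR STD replicates 8 to 12 and at 84.0, 98.8 and 111.7 in CHEMO STD. The value of 47.9 in TUMOUR STD 10 was far below the rest. Mrps15 differed by 0.35 ± 0.154 (SE, unadjusted p = 0.0346, edgeR), and its p missed 0.05 without that sample, as it did when any of 5 other samples was left out.

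In the large subunit 1 gene had an unadjusted p below 0.05. Mrpl27, a protein of the central protuberance that reaches towards the site where peptide bonds form, was at 62.7, 42.5, 39.7, 51.1 and 45.4 CPM in TUMOUR STD replicates 8 to 12 and at 58.1, 60.5 and 67.0 in CHEMO STD. TUMOUR STD 8 lay inside the CHEMO STD range and the other 4 lay below it. Mrpl27 differed by a log2 fold change of 0.35 ± 0.137 (SE, unadjusted p = 0.019, edgeR), and it missed p below 0.05 without TUMOUR STD 9 or without TUMOUR STD 10, with a largest p of 0.0614.

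**Figure D3:**
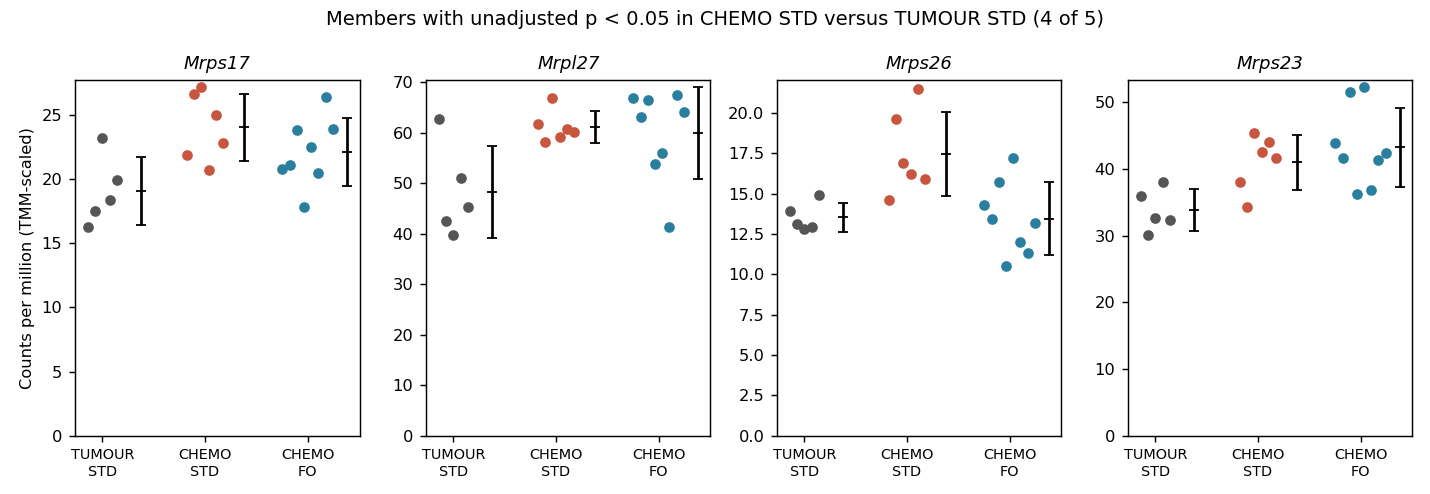
TMM-scaled CPM (vertical axis, from 0) of Mrps17, Mrpl27, Mrps26 and Mrps23 in each sample, by group, with the mean ± SD at the right of each group. CHEMO STD points lie mostly above TUMOUR STD points in each panel, and for Mrps26 the CHEMO FO mean of 13.5 equals the TUMOUR STD mean of 13.5.

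The largest and smallest differences of this comparison did not pass the test. Mrpl18, a central protuberance protein, was at 34.2 ± 14.3 CPM (SD, n = 5) in TUMOUR STD and 47.0 ± 7.76 (n = 6) in CHEMO STD, a log2 fold change of 0.46 ± 0.238 (SE, unadjusted p = 0.0675, edgeR). TUMOUR STD values of Mrpl18 spread from 17 to 50.2. Mrpl10, which anchors the stalk that recruits translation factors, was at 28.7 ± 4.28 and 23.2 ± 2.78 CPM, a log2 fold change of -0.30 ± 0.150 (SE, unadjusted p = 0.0606, edgeR).

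By place in the ribosome, no structural group of genes stood out by count. Of the tested stalk proteins 2 of 3 were higher (median log2 fold change 0.10), of central protuberance proteins 5 of 8 (0.12), of exit tunnel proteins 4 of 5 (0.13), of proteins near the peptidyl transferase centre 2 of 4 (0.01) and of proteins near the decoding centre 4 of 5 (0.10). Mrpl12, the stalk protein that contacts translation factors, was at 102.1 ± 20.8 CPM in TUMOUR STD (SD, n = 5), 109.2 ± 12.6 in CHEMO STD (n = 6) and 114.4 ± 28.4 in CHEMO FO (n = 8). Mrps12, at the decoding centre, was at 12.8 ± 1.60, 16.3 ± 2.34 and 14.7 ± 4.28 CPM in the same groups.

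Some symbols mislead about place. Mrps30 and Mrps18a sit in the large subunit despite their names, and they had log2 fold changes of 0.22 and -0.19 in CHEMO STD against TUMOUR STD, which did not pass the test. The Mrps18a paralogs Mrps18b (0.02) and Mrps18c (0.30) did not pass the test either. Mrps36 is now known as a subunit of the 2-oxoglutarate dehydrogenase complex rather than of the ribosome, and its log2 fold change was 0.34 (unadjusted p = 0.0648, edgeR).

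The second comparison, CHEMO FO with CHEMO STD, addresses the fish oil diet during chemotherapy. The family had no common direction. Of 71 genes, 31 were on the higher side (43.7%, against 48.7% of all genes), with a median log2 fold change of -0.03, beside -0.01 for all genes, and a range from -0.37 to 0.30. At an unadjusted p below 0.05 in edgeR, 0 were higher (2.45% of all genes) and only Mrps26 was lower (2.06%), 1.41% of the family against 4.51% of all genes in either direction. With 1.5-fold required as well, 0 passed (1.66% of all genes), and the smallest Benjamini-Hochberg adjusted p in edgeR was 0.974. DESeq2 likewise gave 1 gene at an unadjusted p below 0.05, beside 4.68% of all genes. For 65 of 71 genes the 95% interval of the fold change lay within 1.5-fold either way, and 0 genes had groups that did not overlap (0.0683% of all genes).

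The sign of this small median turned on CHEMO FO 18. Without that sample, 45 of 71 genes were higher, with a median of 0.04 and 3 genes at p below 0.05 (5.28% of all genes). Without TUMOUR STD 10 and CHEMO FO 16 and 18 together 50 were higher, with a median of 0.07. The Mrpl genes had a median of 0.03 (22 of 42 higher) and the Mrps genes one of -0.07 (9 of 29 higher) with all samples, a difference that was not tested.

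Mrps26 was lower on fish oil than on the standard diet. Its CHEMO FO values had a lowest, median and highest of 10.5, 13.3 and 17.2 CPM, against 14.6, 16.6 and 21.5 in CHEMO STD, so the ranges overlapped. The log2 fold change was -0.37 ± 0.130 (SE, unadjusted p = 0.0101, Benjamini-Hochberg adjusted p = 0.974, edgeR), with a 95% interval from -0.63 to -0.10. It ranged from -0.42 to -0.28 over 31 alternative settings, with an unadjusted p of at most 0.0482. Since both comparisons share the CHEMO STD samples, the higher value against TUMOUR STD and the lower value of CHEMO FO are not independent. Against TUMOUR STD directly, Mrps26 differed by -0.00 ± 0.138 in CHEMO FO (SE, 95% interval -0.29 to 0.28).

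Genes on the higher side in CHEMO FO against CHEMO STD included Mrpl41 (0.30), Mrpl38 (0.23) and Mrpl10 (0.22), and genes on the lower side Mrpl18 (-0.29), Mrpl19 (-0.28) and Mrps6 (-0.25), none with a p below 0.05. Mrpl19, a bacterial-type protein at the subunit interface, was at 26.6 ± 3.57 CPM in CHEMO STD (SD, n = 6) and 21.7 ± 5.23 in CHEMO FO (n = 8). Its p was 0.0708 by edgeR, unadjusted.

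The third comparison, CHEMO FO with TUMOUR STD, sets chemotherapy with fish oil beside the tumour alone, and shares samples with both comparisons above. Again most genes were slightly higher. Of 71 genes, 62 were higher (87.3%, against 50.4% of all genes), with a median log2 fold change of 0.14, beside 0.00, and a range from -0.07 to 0.53. At an unadjusted p below 0.05, 7 were higher (3.72% of all genes) and 0 lower (5.32%) in edgeR, 9.86% of the family against 9.04% of all genes in either direction. With 1.5-fold as well, 0 passed (3.6% of all genes), and the smallest Benjamini-Hochberg adjusted p in edgeR was 0.486. DESeq2 gave 9 genes at an unadjusted p below 0.05, beside 9.4% of all genes. For 57 of 71 genes the 95% interval lay within 1.5-fold, and 0 had groups that did not overlap (0.324% of all genes).

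Both the count and the median moved with single samples. Without CHEMO FO 18 there were 12 genes at p below 0.05 (9.0% of all genes) and 69 of 71 higher (median 0.19). Without TUMOUR STD 9 there were 4 at p below 0.05 (7.51% of all genes). Without TUMOUR STD 10 there were 5 (5.67% of all genes), with 53 higher and a median of 0.07. Without TUMOUR STD 10 and CHEMO FO 16 and 18 together there were 16, all higher, beside 7.37% of all genes.

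**Figure D4:**
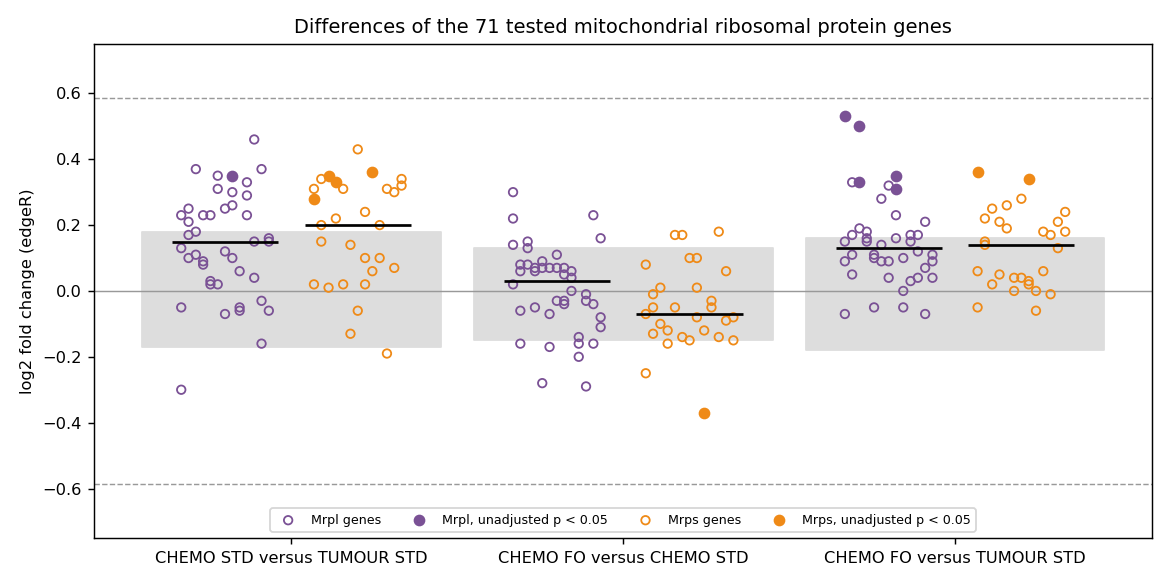
Fitted log2 fold change (vertical axis) of each of the 71 tested genes in the 3 comparisons, Mrpl and Mrps genes apart, with filled points for an unadjusted p below 0.05, black lines at the medians, grey bands for the middle 50% of all genes tested and dashed lines at 1.5-fold. In both comparisons with TUMOUR STD the medians lie at 0.13 to 0.20, and in CHEMO FO against CHEMO STD at 0.03 and -0.07.

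In the small subunit, Mrps23 had the smallest p. Its CHEMO FO values had a lowest, median and highest of 36.3, 42.0 and 52.3 CPM. Only TUMOUR STD 11, at 38.0 CPM, lay above the lowest of them. The log2 fold change of Mrps23 was 0.36 ± 0.115 (SE, unadjusted p = 0.00509, Benjamini-Hochberg adjusted p = 0.486, edgeR), and over 31 settings its unadjusted p was at most 0.0186.

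Mrps7, a protein of the small subunit's head along the mRNA path, was at 49.7, 50.5, 44.2, 68.1 and 59.4 CPM in TUMOUR STD replicates 8 to 12 and at 60.1, 65.8 and 84.2 (lowest, median, highest) in CHEMO FO. TUMOUR STD 11 lay inside the CHEMO FO range and the other 4 below it. Mrps7 had a log2 fold change of 0.34 ± 0.121 (SE, unadjusted p = 0.00991, edgeR).

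Among large-subunit genes, Mrpl45 encodes a protein at the exit of the polypeptide tunnel that holds the ribosome to the inner membrane. It was at 56.5, 48.7, 44.9, 67.8 and 56.8 CPM in TUMOUR STD replicates 8 to 12 and at 62.5, 67.7 and 79.6 in CHEMO FO. As for Mrps7, only TUMOUR STD 11 reached the CHEMO FO range. On the log2 scale Mrpl45 differed by 0.33 ± 0.116 (SE, unadjusted p = 0.00974, edgeR), and Mrps7 and Mrpl45 both kept an unadjusted p below 0.05 under all 31 settings.

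Mrpl41, a protein with no bacterial counterpart, had the largest difference, and it leaned on 1 sample. TUMOUR STD replicates 8 to 12 had 20.3, 20.7, 16.7, 22.8 and 22.9 CPM. CHEMO FO values had a lowest of 20.9 and a median of 25.9, and the highest, 59.7 in CHEMO FO 18, was far from the next, 28.1. The log2 fold change was 0.53 ± 0.195 (SE, unadjusted p = 0.0117, edgeR). Without CHEMO FO 18 the difference was 0.31 (unadjusted p = 0.0122, edgeR), and over the 31 settings it ran from 0.27 to 0.59.

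Mrpl32, a bacterial-type protein matured by the m-AAA protease before it joins the large subunit, was at 14.8, 11.1, 7.38, 14.7 and 12.8 CPM in TUMOUR STD replicates 8 to 12 and at 6.63, 17.3 and 24.4 in CHEMO FO, whose range enclosed all TUMOUR STD values. Its log2 fold change of 0.50 ± 0.226 (SE, unadjusted p = 0.0361, edgeR) missed p below 0.05 without CHEMO FO 18, TUMOUR STD 9, TUMOUR STD 10, CHEMO FO 17 or CHEMO FO 20. Mrpl27 was at 41.3, 63.7 and 67.5 CPM in CHEMO FO, a difference of 0.31 ± 0.129 (SE, unadjusted p = 0.0245, edgeR) that missed p below 0.05 without TUMOUR STD 9, TUMOUR STD 10 or TUMOUR STD 12, or with only the groups compared in the fit. Mrpl57, a small protein specific to mitochondria, had 0.35 ± 0.167 (SE, unadjusted p = 0.0488, edgeR), which held in 17 of 31 settings.

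**Figure D5:**
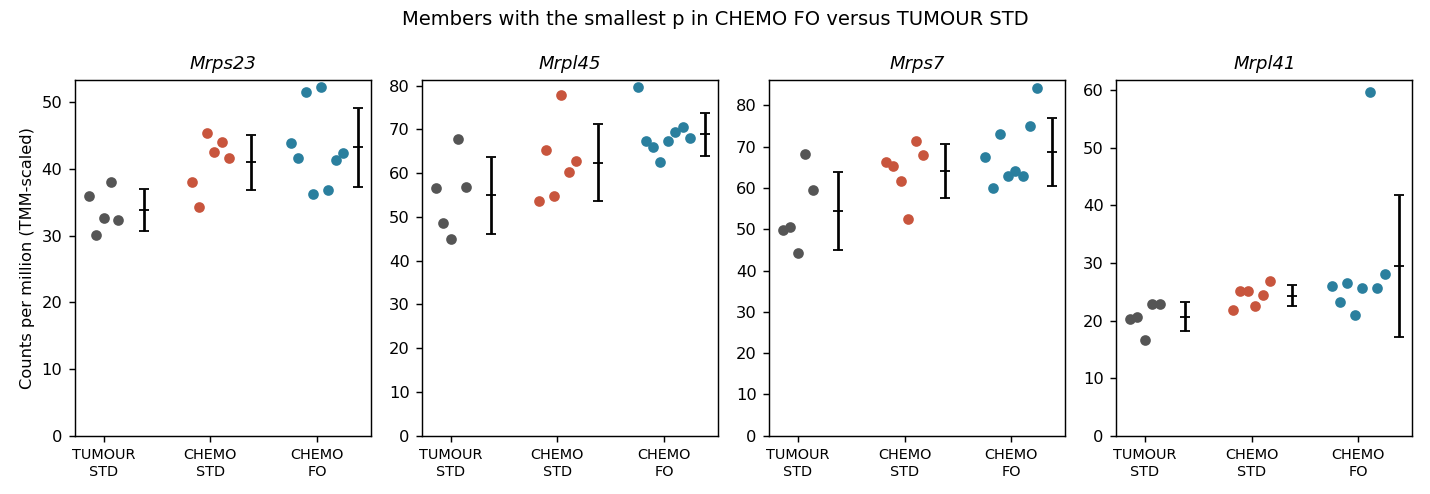
TMM-scaled CPM (vertical axis, from 0) of Mrps23, Mrpl45, Mrps7 and Mrpl41 in each sample, by group, with the mean ± SD at the right of each group. Most CHEMO FO points lie above most TUMOUR STD points, and CHEMO FO 18 stands alone at 59.7 CPM for Mrpl41.

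The proteins of the cytosolic ribosome and the nuclear genes of oxidative phosphorylation were set beside the family in the same fits. In CHEMO STD against TUMOUR STD, 66 of 70 cytosolic ribosomal protein genes were higher, with a median of 0.21 on the log2 scale. At an unadjusted p below 0.05 in edgeR, 19 of them were higher (2.67% of all genes) and 0 lower (3.83%). Of 80 oxidative phosphorylation genes 55 were higher, with a median of 0.07, and at p below 0.05 there were 1 higher and 1 lower. In CHEMO FO against TUMOUR STD the counts were 68 of 70 (median 0.24) and 46 of 80 (median 0.02). At p below 0.05, 22 cytosolic genes were higher (3.72% of all genes) and 0 lower (5.32%). Of the oxidative phosphorylation genes 0 were higher and 1 lower at that p. In CHEMO FO against CHEMO STD the counts on the higher side were 45 of 70 (median 0.05) and 22 of 80 (median -0.06). At p below 0.05 there were 2 and 0, beside 4.51% of all genes. The family's medians of 0.16, 0.14 and -0.03 thus lay between those of the other groups in each comparison, with no test of the difference.

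The remaining proteins of the mitochondrial ribosome, which carry other symbols, numbered 5. All were on the higher side in CHEMO STD against TUMOUR STD, 1 at an unadjusted p below 0.05 (2.67% of all genes). Chchd1, a small-subunit protein, was at 46.9 ± 11.5 CPM in TUMOUR STD (SD, n = 5) and 63.2 ± 4.6 in CHEMO STD (n = 6), a log2 fold change of 0.43 ± 0.163 (SE, unadjusted p = 0.0147, edgeR). Its p missed 0.05 without TUMOUR STD 10.

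Factors that assemble the ribosome gave mixed directions, with 14 of 25 higher in CHEMO STD against TUMOUR STD. At p below 0.05, 2 were higher (2.67% of all genes) and 1 lower (3.83%). Ybey, an RNase that works on the small subunit with Mrps11, was at 6.67 ± 0.821 CPM in TUMOUR STD (SD, n = 5), 4.41 ± 1.07 in CHEMO STD (n = 6) and 6.04 ± 1.31 in CHEMO FO (n = 8). The log2 fold change of Ybey was -0.57 ± 0.202 for chemotherapy (SE, unadjusted p = 0.00937, Benjamini-Hochberg adjusted p = 0.719, edgeR) and 0.43 ± 0.187 for CHEMO FO against CHEMO STD (SE, unadjusted p = 0.0327), which share the CHEMO STD samples. The former kept p below 0.05 in 31 of 31 settings and the latter in 25. Ngrn (0.48) and Mterf4 (0.42), which act in large-subunit assembly, were the other assembly genes at p below 0.05 against TUMOUR STD, in 14 and 10 of 31 settings. Mpv17l2, an inner-membrane assembly protein, differed by 0.41 in CHEMO FO against CHEMO STD (unadjusted p = 0.0351, edgeR) and held in 24 of 31 settings, with a p above 0.05 without CHEMO FO 18, CHEMO FO 19, CHEMO FO 20, CHEMO STD 5 or CHEMO STD 7.

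Translation factors had 12 of 15 genes on the higher side in CHEMO STD against TUMOUR STD and 14 of 15 in CHEMO FO against TUMOUR STD. In both, 0 had an unadjusted p below 0.05 by edgeR (6.5% and 9.04% of all genes). Tufm, the elongation factor that brings charged tRNA, was at 116.1 ± 11.6 CPM in TUMOUR STD (SD, n = 5), 119.2 ± 9.29 in CHEMO STD (n = 6) and 122.8 ± 11.2 in CHEMO FO (n = 8). The enzymes that charge mitochondrial tRNAs had 10 of 19 higher in CHEMO STD against TUMOUR STD and 9 of 19 in CHEMO FO against TUMOUR STD. Gatc, a subunit of the amidotransferase that completes glutamine tRNA, was the 1 gene of these at p below 0.05 (0.23 in CHEMO FO against TUMOUR STD, unadjusted p = 0.047, edgeR), in 16 of 31 settings.

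Of genes for transcription and copying of mitochondrial DNA, 7 of 10 were higher in CHEMO STD against TUMOUR STD and 6 of 10 in CHEMO FO against CHEMO STD. Polrmt, the mitochondrial RNA polymerase, was at 18.6 ± 6.75 CPM in CHEMO STD (SD, n = 6) and 25.8 ± 3.68 in CHEMO FO (n = 8), a log2 fold change of 0.44 ± 0.187 (SE, unadjusted p = 0.0268, edgeR), which missed p below 0.05 without CHEMO FO 18, CHEMO STD 3, CHEMO STD 4 or CHEMO STD 5 and held in 25 of 31 settings. Among 9 regulators of nuclear genes for mitochondria, Pprc1, a coactivator, was at 23.5 ± 4.90 CPM in TUMOUR STD (SD, n = 5) and 18.2 ± 3.45 in CHEMO STD (n = 6), a log2 fold change of -0.36 (unadjusted p = 0.0469, edgeR) that held in 11 of 31 settings. Myc, a growth regulator, passed both p below 0.05 and 1.5-fold in CHEMO FO against TUMOUR STD, with 3.64 ± 1.21 and 8.65 ± 8.25 CPM and a log2 fold change of 1.31 (unadjusted p = 0.00712, edgeR). CHEMO FO 18 held its highest value, 28.4 CPM, and without it the log2 fold change was 0.69 (unadjusted p = 0.034).

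Sequences before the gene starts were examined for what these genes share beside their values. RefSeq gave a window of 250 bases before to 50 after the start, in build GRCr8, for 57 of the 71 tested genes, while the counts were made on an older build. Short motifs were searched on both strands as exact letters. The YY1 motif AAGATGGC was found in 24.6% of the 57 windows, against 5.69% of 9117 windows of tested genes and 3.44% of all 27457 windows. The ETS motif CCGGAAG was found in 31.6%, 18% and 9.22% of the same sets, and the NRF1 motif in 14%, 10.4% and 4.71%. GGGCGG, bound by Sp1, was found in 49.1%, 63.3% and 34.9%, and CCAAT in 42.1%, 37.7% and 37.7%. A match is a run of letters and not a measured binding site.

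The sequences of 4 gene starts are printed, of the 3 members with an unadjusted p below 0.05 in more than 1 comparison and of the pair of members that start head to head. Each runs 5′ to 3′ on the gene's strand and ends at the base before the start, and capitals mark the motifs. The window of Mrps26 also held NRF1 and ETS matches, and that of Mrpl46 a YY1 match, which lie outside the stretches printed.
Mrps23 (chr10:73495988-73496237, plus strand, no motif): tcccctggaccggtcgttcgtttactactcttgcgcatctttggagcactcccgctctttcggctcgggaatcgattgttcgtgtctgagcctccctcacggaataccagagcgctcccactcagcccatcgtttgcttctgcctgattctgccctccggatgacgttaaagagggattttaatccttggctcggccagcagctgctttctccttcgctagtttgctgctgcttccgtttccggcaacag
Mrpl27 (chr10:80092095-80092344, plus strand, ETS motif): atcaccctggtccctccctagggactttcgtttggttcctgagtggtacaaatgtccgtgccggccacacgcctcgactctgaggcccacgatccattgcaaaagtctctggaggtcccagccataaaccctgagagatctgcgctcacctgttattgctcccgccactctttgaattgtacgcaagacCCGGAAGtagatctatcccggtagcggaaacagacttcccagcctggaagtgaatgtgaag
Mrps26 (chr3:138222074-138222323, plus strand, GGGCGG at 2 places and between them ATTGG, the reverse complement of CCAAT): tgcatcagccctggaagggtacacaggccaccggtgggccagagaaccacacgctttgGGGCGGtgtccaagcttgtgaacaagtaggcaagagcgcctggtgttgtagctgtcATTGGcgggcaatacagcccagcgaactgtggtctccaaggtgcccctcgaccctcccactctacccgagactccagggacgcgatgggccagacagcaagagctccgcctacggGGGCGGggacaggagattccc
Mrpl46 to Mrps11 (chr1:142117031-142117263, strand of Mrpl46, no motif): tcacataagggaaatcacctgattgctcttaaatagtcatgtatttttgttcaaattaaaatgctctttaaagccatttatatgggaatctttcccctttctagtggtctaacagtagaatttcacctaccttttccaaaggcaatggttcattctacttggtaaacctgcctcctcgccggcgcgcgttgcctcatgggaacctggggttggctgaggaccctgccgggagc

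Head-to-head starts were common in the family. A neighbour starting within 1000 bases on the other strand was found for 29.8% of the 57 genes, against 16.1% of tested genes and 10.4% of all. Mrpl46, of the central protuberance, and Mrps11, of the small subunit's platform, start 234 bases apart, so that 1 interval lies before a gene of each subunit. In CHEMO STD against TUMOUR STD their log2 fold changes were 0.29 ± 0.208 and 0.10 ± 0.185 (SE), and in CHEMO FO against CHEMO STD they were -0.14 ± 0.186 and -0.08 ± 0.166, none with a p below 0.05. CHEMO FO 18 separated them, with 17.9 CPM for Mrpl46, inside its group, and 11.3 for Mrps11, the lowest of all samples.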

How the data were processed

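The authors depleted ribosomal RNA, made stranded libraries, trimmed reads with Trim Galore 0.4.1, aligned them with TopHat2 2.0.10 to the Rnor 6 build and deposited unnormalised gene counts, per the labels and the study's methods. For counting, the settings of strand and multiple hits were not given in the sources used here. Unnamed rows (388, 0.102% to 0.272% of a library) were left out.

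The tests used edgeR 4.0.16 (R 4.3.3), with its default filter (minimum count 10, minimum total 15), TMM scaling, 1 quasi-likelihood fit of 3 groups and 19 samples, and Benjamini-Hochberg adjustment over 11716 genes. Called means an unadjusted p below 0.05 and at least 1.5-fold, the study's thresholds. Counts of CHEMO STD 1 and 2 were summed. This pair differed by a mean chi-square of 2.55 per tested member, and each differed from CHEMO STD 4, of like depth, by 9.08 and 9.52. Over all 58 other pairs within a group, not matched for depth, the value ran from 1.88 to 30.7. The pair was therefore not the most alike by this measure. The p-values set group differences against the spread between samples of a group. The labels give no animal numbers, so they do not show that each sample is a separate rat. Named genes were mainly members with an unadjusted p below 0.05, extremes of level or spread, untested members and structural groups, and listed pathway genes at p below 0.05. Some others, such as Tufm, Mrpl19 and Mrps30, were named outside these rules. Alternatives were RLE and unscaled libraries, other filters, DESeq2 1.42.0, limma 3.58.1 voom weights, other treatments of CHEMO STD 1 and 2, only the groups compared, each library left out, and, added after seeing the data, 3 samples left out. The members and lists were chosen with earlier results of these data known. Scripts were tested on simulated data.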

Additional observations from a re-analysis of the deposited data

Results flagged for a closer look

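Single samples far from the rest of their group were looked for in 141 groups of values (47 quantities in 3 groups). Chance alone would flag about 1 in 20 of these if they were independent, which is about as many as the 7 flags found. The same samples underlie all 47 quantities, so they are not independent. This count therefore cannot tell the flags from chance. CHEMO FO 18 accounted for 4 of them. It had 13.8 CPM of Mrpl40, a central protuberance protein, against 24.3 to 33.4 in the other CHEMO FO samples, and 29.0 CPM of Mrpl48, of the same structure, against 49.1 to 55.0. It also had 11.3 CPM of Mrps11 against 22.3 to 30.5. In the other direction it had 59.7 CPM of Mrpl41 against 20.9 to 28.1. The same sample had the highest summed leukocyte and the lowest summed muscle fibre markers. The leukocyte sum does not stand for every marker in it, and the part of these cells in the flagged values was not tested.

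The remaining flags were spread over other samples. CHEMO FO 13 had 79.6 CPM of Mrpl45 against 62.5 to 70.6. CHEMO STD 1 and 2, taken as 1 sample, had 21.1 CPM of Mrps22 against 32.1 to 37.2, and CHEMO STD 5 had 61.7 CPM of Mrps5 against 47.2 to 51.9.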

How the results depend on the processing

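No paired analysis was possible because the replicate numbers are not shared between groups. The number of members called (main value 0 in all comparisons) was 0 under all settings that did not leave out a single library. With 1 library left out it ranged from 0 to 1 in CHEMO STD against TUMOUR STD (Mrpl18, 0.64, without TUMOUR STD 8), from 0 to 0 in CHEMO FO against CHEMO STD and from 0 to 2 in CHEMO FO against TUMOUR STD (Mrpl32 and Mrpl41, 0.61 and 0.59, without CHEMO FO 16). The numbers at an unadjusted p below 0.05 were 5, 1 and 7, and brackets below give the share of all genes in the same fit. The first ranged from 2 without TUMOUR STD 10 (2.71%) to 14 without TUMOUR STD 11 (10.0%). The second ranged from 1 to 3, the latter without CHEMO FO 18 (5.28%). The third ranged from 4 without TUMOUR STD 9 (7.51%) to 12 without CHEMO FO 18 (9.0%). The first was also 8 without TUMOUR STD 8 (10.1%) and 9 without CHEMO FO 18 (8.92%). It was 3 without TUMOUR STD 9 (5.48%), TUMOUR STD 12 (4.53%) or CHEMO STD 6 (4.79%). The second was 2 without CHEMO STD 4 (3.34%), CHEMO FO 14 (4.45%) or CHEMO FO 19 (4.2%). With voom quality weights the numbers were 9 (9.03%), 5 (11.4%) and 11 (9.74%). With only the groups compared in the fit, CHEMO STD against TUMOUR STD gave 8 (7.77%) and CHEMO FO against TUMOUR STD 4 (7.24%). Without CHEMO STD 1 and 2 the first was 10 (11.6%), and without scaling the second was 2 (4.03%). TUMOUR STD 10, CHEMO FO 16 and CHEMO FO 18 were chosen after seeing the data. Without these samples the second was 3 (4.68%) and the third 16 (7.37%). The cause was not tested. Median log2 fold changes with 1 library left out ran from 0.11 to 0.20, from -0.05 to 0.04 and from 0.07 to 0.19. Members at p below 0.05 kept their sign under all settings. With the shallowest library at 3020821 counts, the median SE of a member's log2 fold change was 0.163, 0.146 and 0.154, so a difference of the size of the family's medians was not detectable in a single gene with that SE.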

Other observations

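The 25 members that were lowest in TUMOUR STD 10 were followed through the other samples, as deviations from each gene's mean without that sample. In TUMOUR STD 12, 21 of the 25 lay below their mean, beside 21 of the 46 other members, with median deviations of -0.18 and 0.04 on the log2 scale. In TUMOUR STD 9 the counts were 25 of 25 and 39 of 46, with medians of -0.15 and -0.16, so that both sets were low alike. The 25 minus the others differed by -0.22 in TUMOUR STD 12, -0.18 in CHEMO FO 19, -0.11 in CHEMO STD 1 and 2 and -0.08 in CHEMO FO 16, and by up to 0.16 the other way, in CHEMO STD 4. The 25 were chosen from the values of 1 sample, no test was made, and a cause was not tested.

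CHEMO FO 18 held the lowest TMM-scaled value of 22 members, from both subunits, and the highest of Mrpl32, Mrpl41 and Mrpl49. Of the genes listed near the peptidyl transferase centre, Mrpl2, Mrpl3 and Mrpl4 were among the 22, and Mrpl16 was lowest in CHEMO FO 16. The low summed level of CHEMO FO 18 depended on the TMM scaling, and the lowest members were not counted without it.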
